A study of Mus musculus with 27 samples.

Results

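Mouse thyroid gland organoids (mTGOs) that had received 7 Gy and were collected at day 7 of culture were compared with unirradiated organoids collected at day 5. The libraries were chosen by the day and dose in their column names, 3 at day 5 without irradiation and 3 at day 7 after 7 Gy, so that 6 of the 27 libraries of the series entered the comparison. The series measured bulk RNA with Smart3SEQ, which sequences the 3′ ends of transcripts, in organoids at days 5, 7 and 11 after 0, 2, 4 or 7 Gy. The question was which programs had moved past the day 5 state by day 7 in spite of 7 Gy and which had not. Cells came from the thyroid glands of C57BL/6 mice, female and 8 to 12 weeks old by the methods, and grew as organoids in Matrigel. Irradiation with photons followed 5 days of growth, so the 7 Gy libraries were taken 2 days after it. Unirradiated day 7 organoids (0 Gy, 3 libraries) had the same age in culture as the 7 Gy organoids and are given beside each list and many of the genes. Day 7 after 7 Gy and day 5 therefore differ in both age and irradiation, and the contrast with 0 Gy at day 7 holds the age fixed. Each group held 1 library from each of 3 cultures, named mTG11, mTG12 and mTG14 in the columns, and per-library values are always given in that order. The labels number the mice 1 to 3, and these numbers could not be matched to the culture names. The series' design text speaks of 4 mice, and which number is right is not settled by the sources used here. The organoids mix cell types grown out of digested glands, and in bulk RNA fewer cells of a type and less RNA per cell cannot be told apart.

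Library totals ran from 2630564 to 3507863 counts at day 5, from 3772966 to 3886276 at 0 Gy day 7 and from 3758142 to 3989606 at 7 Gy day 7, so day 5 was the shallowest group. Levels are CPM, counts scaled to a library total of 1000000, and a floor of 3 counts, which covers counting error only, stood for the least that counts as detected. Fold changes are log2 values ± SE from edgeR's quasi-likelihood test with TMM normalization and the culture as a block, fitted to the 9 libraries of the 3 groups, and a gene was called at a Benjamini-Hochberg adjusted p under 0.05. The label was checked against thyroid genes. Of 20 such genes, 8 had too few counts to test, among them the thyrotropin receptor gene Tshr, the iodide transporter gene Slc5a5 and the transcription factor gene Pax8, each at no more than 5 counts in any group of 3 libraries. Other members were expressed, and the transcription factor genes Foxe1 and Nkx2-1 averaged 38.1 and 12.2 CPM at day 5. The oxidase gene Duox1 and its partner gene Duoxa1 averaged 31.5 and 42.9 CPM, and the list summed to 204 to 230 CPM. Keratins of stratified epithelium were far more abundant, and Krt5 was at 5556, 6433 and 6328 CPM at day 5. The RNA was thus that of a keratin-rich epithelium in which some thyroid genes were expressed and others were nearly absent. The organoids are called mTGOs after their origin.

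Ionizing radiation breaks DNA, and the transcription factor p53 then raises genes that stop the cell cycle, repair damage or start apoptosis. Damaged DNA or RNA that reaches the cytosol can be sensed as foreign, and the resulting interferon signal raises interferon-stimulated genes through transcription factors that bind the interferon-stimulated response element. Organoids that grow unperturbed can pass from division towards maturation, with some stratified and secretory epithelial genes rising as the genes of DNA replication and mitosis fall. Hypoxia genes respond to low oxygen through the HIF factors and include many glycolytic enzymes.

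The promoters of 4 interferon-stimulated genes that are core members of their list, and of Top2a, a mitotic gene that fell, are shown because interferon and mitosis genes had the highest and the lowest list median of the programs compared. Each is the 250 bases before the annotated start in GRCm39, 5′ to 3′ on the gene's strand. Isg15 lies on the minus strand at chr4:156285304-156285553, Ifit3 on the plus strand at chr19:34560649-34560898, Rsad2 on the minus strand at chr12:26506452-26506701, Irf7 on the minus strand at chr7:140846399-140846648 and Top2a on the minus strand at chr11:98915042-98915291. In the first 4 sequences capitals mark the interferon-stimulated response element on either strand, searched as a pair of GAAA with 2 bases of any kind between them, and in Top2a they mark TTTGAA, the cell cycle homology region, and CCAAT, both on either strand.
Isg15: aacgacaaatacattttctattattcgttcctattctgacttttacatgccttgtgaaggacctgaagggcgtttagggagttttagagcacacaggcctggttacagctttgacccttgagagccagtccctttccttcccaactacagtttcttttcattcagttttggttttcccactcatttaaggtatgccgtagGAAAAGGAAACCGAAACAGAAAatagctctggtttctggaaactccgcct
Ifit3: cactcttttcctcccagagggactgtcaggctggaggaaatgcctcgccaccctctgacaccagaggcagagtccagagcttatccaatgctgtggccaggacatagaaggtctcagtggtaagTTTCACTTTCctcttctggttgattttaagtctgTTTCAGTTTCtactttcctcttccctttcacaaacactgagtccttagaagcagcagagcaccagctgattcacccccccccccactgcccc
Rsad2: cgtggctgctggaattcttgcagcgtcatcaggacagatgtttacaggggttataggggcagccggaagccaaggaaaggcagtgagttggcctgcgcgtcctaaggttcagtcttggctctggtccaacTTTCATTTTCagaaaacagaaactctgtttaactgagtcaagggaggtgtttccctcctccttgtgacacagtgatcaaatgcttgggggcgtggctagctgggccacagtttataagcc
Irf7: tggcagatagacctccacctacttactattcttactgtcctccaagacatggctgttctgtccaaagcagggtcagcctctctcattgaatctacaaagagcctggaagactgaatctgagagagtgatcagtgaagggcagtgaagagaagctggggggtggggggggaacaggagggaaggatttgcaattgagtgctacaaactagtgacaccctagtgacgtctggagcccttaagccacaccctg
Top2a: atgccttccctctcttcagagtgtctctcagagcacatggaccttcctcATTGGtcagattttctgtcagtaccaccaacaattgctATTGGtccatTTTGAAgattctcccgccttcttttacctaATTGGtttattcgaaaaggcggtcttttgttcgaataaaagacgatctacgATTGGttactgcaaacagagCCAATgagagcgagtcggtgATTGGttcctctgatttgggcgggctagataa
The response element matched 3 times in Isg15, where the matches overlap, 2 times in Ifit3, 1 time in Rsad2 and nowhere in the window of Irf7. It was present in 13 of 39 interferon-stimulated promoters (33.3%) and in 3.32% of 21722 promoters of protein-coding genes. In the Top2a window TTTGAA matched 1 time and CCAAT 6 times. The windows of the mitotic genes Mki67 and Ccnb1 held neither motif, and that of Cdc20 held the first of them 1 time and not the second. TTTGAA was present in 9 of 40 promoters of mitosis genes (22.5%) and 15.6% of all, and CCAAT in 19 of 40 (47.5%) and 36.5% of all. A match says only that these letters are present.

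Of 18372 genes tested, 5150 (28.0%) differed between 7 Gy day 7 and day 5, 2826 of them higher (15.4%) and 2324 lower (12.6%). A change of more than 1 on the log2 scale was found in 1921 of the called genes, 1251 higher and 670 lower. Between 0 Gy day 7 and day 5, 4603 genes (25.1%) differed, 2561 higher (13.9%) and 2042 lower (11.1%). Directly between 7 Gy and 0 Gy at day 7, 2135 genes (11.6%) differed, 968 higher (5.27%) and 1167 lower (6.35%). This last contrast is the test of whether the change from day 5 differed between 7 Gy and 0 Gy. The 3 contrasts share libraries, so their values are set side by side and no likeness between them is counted. Without the TMM factors the share of higher calls fell from 54.9% to 37.8% and the median of all genes moved from 0.03 to -0.10, so small shifts of a whole list depend on the scaling. The plot of list medians sets 23 programs side by side, and the plot of called members gives the share of each program that passed the test. Counts of called members are to be read against the shares over all genes in the same contrast. A count near its share says little about the list.

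**Figure D1:**
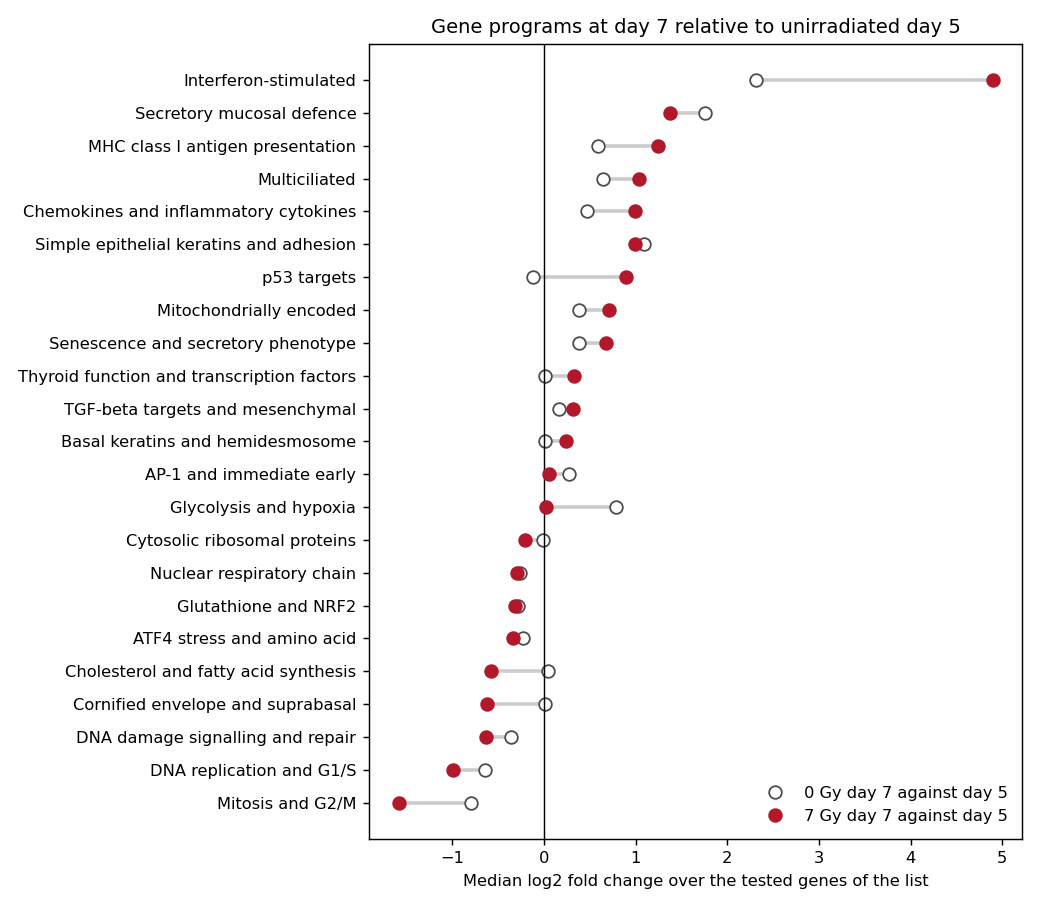
Median log2 fold change of the tested members of 23 gene programs, for 7 Gy day 7 against day 5 (filled red) and 0 Gy day 7 against day 5 (open). Interferon-stimulated genes lie farthest right at 4.90 after 7 Gy and 2.31 without it, mitosis genes farthest left at -1.59 and -0.80, and the hypoxia list sits at 0.03 after 7 Gy and 0.79 without it.

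**Figure D2:**
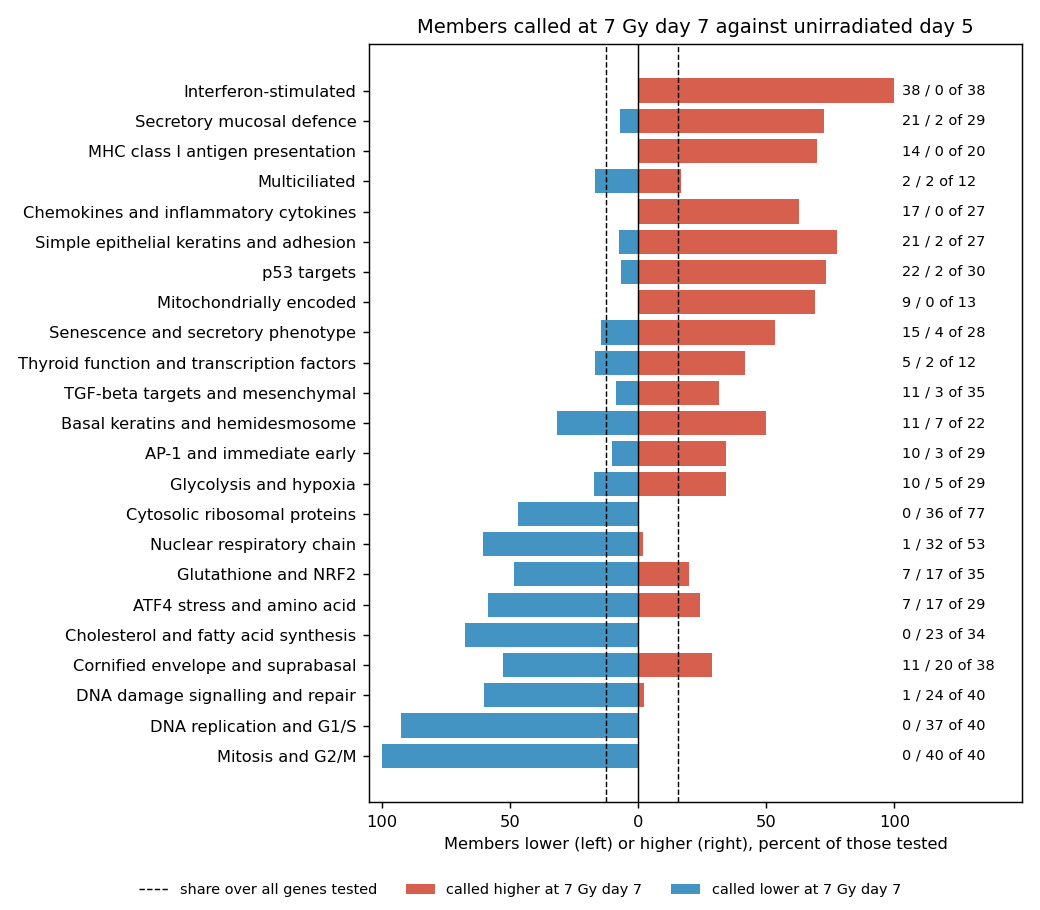
Percent of tested members of each program called higher (right) or lower (left) at 7 Gy day 7 than at day 5, with counts beside the bars and dashed lines at 15.4% and 12.6%, the shares over all genes. All 40 mitosis genes were called lower, and no cholesterol or ribosomal protein gene was called higher.

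The interferon-stimulated program had moved farthest past the day 5 state. Of 39 listed genes, 38 had enough counts to test and 38 were called higher at 7 Gy day 7 than at day 5, none lower, with a median log2 difference of 4.90. Many had almost no counts at day 5 and so entered the test by their counts at day 7, and the count is a description. With genes that were at 0 at day 5 set to their lower bound, the median was 4.79. At 0 Gy day 7, 22 of the 38 were called higher than at day 5, with a median of 2.31, and 34 were higher at 7 Gy than at 0 Gy at day 7. The 0 Gy count was 11 without the culture block and 14 without the day 5 library of mTG11. The list summed to 205 to 213 CPM at day 5, 381 to 570 CPM at 0 Gy day 7 and 778 to 2701 CPM at 7 Gy day 7.

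Isg15, a ubiquitin-like modifier, was at 4.14, 2.28 and 0.855 CPM at day 5 and at 293, 46.2 and 109.9 CPM at 7 Gy day 7. The groups did not overlap, and the 0 Gy day 7 libraries lay between them at 18.6, 8.75 and 10.7 CPM. The log2 difference from day 5 was 6.04 ± 0.32 (adjusted p = 6e-08) after 7 Gy, against 2.62 ± 0.45 at 0 Gy. Ifit1, which binds foreign RNA caps, was at 1.85, 1.44 and 1.78 CPM at day 5 and at 207, 36.8 and 101 CPM at 7 Gy day 7, a difference of 6.15 ± 0.33 (adjusted p = 7.01e-08). Irf7, the factor that amplifies type I interferon production, went from 0.689, 1.9 and 0.855 CPM to 101, 22.6 and 59.1 CPM and rose by 5.83 ± 0.38 (adjusted p = 3.4e-07). Culture mTG11 was the highest and mTG12 the lowest after 7 Gy for each of these genes, so the size of the rise varied between cultures while its direction did not.

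Some of the strongest rises started from no more than 3 counts in the whole day 5 group, and their folds carry wide counting intervals. Ifit3, a member of the same family as Ifit1, was at 0, 0 and 0.285 CPM at day 5 and at 79.3, 15 and 29.4 CPM at 7 Gy day 7, a ratio of 377 with a 95% counting interval of 67.4 to 14938. Ifit3b, its near copy, had no count at day 5 and was at least 111-fold higher at 7 Gy day 7, and reads shared between the copies make the split between them uncertain. Rsad2, which encodes the antiviral protein viperin, was at 0, 0 and 0.285 CPM and then at 52.2, 8.48 and 15.2 CPM, a ratio of 232 (41.2 to 9171). Ifi44 went from 1.03, 0 and 0 CPM to 113, 19 and 58 CPM, a ratio of 192 (65.6 to 935). Every 7 Gy library was above every day 5 library for these 4 genes. The same held for all 38 tested genes of the list, where 16.6% of all genes did so. Irf7, whose promoter window held no match, was among them, so this separation says nothing about the motif.

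Eif2ak2, the double-stranded RNA-activated kinase PKR and the smallest rise among the list's genes with a mean of at least 10 CPM, went from 93.6, 104 and 96.8 CPM to 137, 120.0 and 111 CPM, by 0.45 ± 0.10 (adjusted p = 0.00327). Its groups were apart, though the step was small, and the difference from 0 Gy at day 7 did not pass (0.26, 95% interval 0.06 to 0.46, adjusted p = 0.099).

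Class I antigen presentation, by which cells show peptides to T cells, had also advanced. Of 21 listed genes 20 were tested, 14 were higher after 7 Gy than at day 5 and none lower, with a median of 1.24. At 0 Gy day 7, 12 were higher and 1 lower, with a median of 0.59, and 8 were higher at 7 Gy than at 0 Gy. The 12 became 7 without the day 5 library of mTG11. The 8 between doses became 2 without the culture block or the 7 Gy library of mTG11, 3 without the 0 Gy library of mTG11 and 4 without that of mTG14. B2m, the invariant light chain, was at 85.4, 78.4 and 62.5 CPM at day 5, at 114, 84.9 and 104 CPM at 0 Gy day 7 and at 360.4, 164 and 235 CPM at 7 Gy day 7. It rose by 1.84 ± 0.17 (adjusted p = 3.84e-06) after 7 Gy, with no overlap between the groups, and the difference from 0 Gy at day 7 was 1.27 ± 0.16 (adjusted p = 0.000209). The heavy chain gene H2-K1 rose by 1.31 ± 0.14 (adjusted p = 1.56e-05), from 101, 127 and 105 CPM to 338, 208 and 222 CPM. Psmb8, a subunit of the immunoproteasome, rose by 2.92 ± 0.34 (adjusted p = 3.67e-05). Without TMM factors 2 members of the list were called lower after 7 Gy than at day 5. The general chaperones on the list were not called in the main fit. Canx was at 362, 369 and 344 CPM and then at 311, 305 and 272 CPM, a difference of -0.14 (95% interval -0.31 to 0.02, adjusted p = 0.185), and for Calr the interval was -0.28 to 0.04.

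The chemokines and inflammatory cytokines called after 7 Gy were all above day 5. Of 30 listed genes 27 were tested and 17 were higher after 7 Gy than at day 5, none lower, with a median of 1.00 (0.87 with genes at 0 set to their bound), and 8 were higher and 1 lower at 0 Gy day 7. Between doses at day 7, 9 were higher at 7 Gy and none lower, where 5.27% of all genes were higher. The 9 became 6 without the 0 Gy library of mTG11. Il33, an alarmin stored in epithelial nuclei, was at 54.5, 49 and 43.6 CPM at day 5 and at 273, 252 and 273 CPM at 7 Gy day 7, a rise of 2.58 ± 0.11 (adjusted p = 1.49e-08). At 0 Gy day 7 it was already at 235, 245 and 239 CPM, and the difference between doses did not pass (0.13, 95% interval -0.07 to 0.33, adjusted p = 0.428). Cxcl1, a neutrophil attractant, behaved otherwise, at 36.2, 33.5 and 29.4 CPM at day 5, 17, 17.2 and 20.3 CPM at 0 Gy day 7 and 50.6, 47.1 and 47.9 CPM at 7 Gy day 7. It rose by 0.69 ± 0.13 (adjusted p = 0.0013) after 7 Gy and fell by 0.70 at 0 Gy (adjusted p = 0.00342), and the 3 groups did not overlap. The interferon-induced Cxcl10 rose by 4.63 ± 0.44 (adjusted p = 6.48e-06), from 1.38, 0.38 and 0 CPM to 25.1, 6.42 and 9.31 CPM. Without culture mTG11 at either day 5 or 7 Gy day 7, or with DESeq2, 11 members were called higher instead of 17.

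The p53 program separated 7 Gy from both unirradiated groups. Of 30 targets, 22 were higher at 7 Gy day 7 than at day 5 and 2 lower, with a median of 0.89, and 21 had every 7 Gy library above every day 5 library, where 16.6% of all genes did. At 0 Gy day 7, 4 were higher and 9 were lower, with a median of -0.13, and 22 were higher at 7 Gy than at 0 Gy with none lower. The 4 became 2 with DESeq2, no TMM factors, thinning or the compared groups alone, and without the mTG11 or mTG14 library of day 5 or of 0 Gy. Every 0 Gy day 7 library was above every day 5 library in 5 of the 30 (14.2% of all genes), and every 7 Gy library was above every 0 Gy library of day 7 in 23 (13.6% of all genes). Cdkn1a, the p21 inhibitor of cyclin-dependent kinases, was at 267, 380.1 and 324 CPM at day 5, at 223, 247 and 259 CPM at 0 Gy day 7 and at 598, 681 and 513 CPM at 7 Gy day 7. It rose by 1.02 ± 0.10 (adjusted p = 8.43e-06). Mdm2, the ligase that degrades p53, rose by 1.79 ± 0.10 (adjusted p = 1.23e-07), from 35.9, 46 and 33.5 CPM to 123, 132 and 108 CPM, with no overlap. Trp53inp1, a stress-induced cofactor of p53, rose by 2.03 ± 0.13 (adjusted p = 2.56e-07), from 43.4, 32.3 and 38.5 CPM to 127, 163 and 140.2 CPM.

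For some targets day 7 without irradiation lay below day 5, so that the comparison with day 5 gave a smaller change than the comparison at equal age. Ccng1, which encodes cyclin G1, was at 177, 225 and 161 CPM at day 5, 88.1, 125 and 100.2 CPM at 0 Gy day 7 and 376, 414 and 277 CPM at 7 Gy day 7. It rose by 1.05 ± 0.11 (adjusted p = 1.23e-05) from day 5 after 7 Gy and fell by 0.69 at 0 Gy (adjusted p = 0.00073), and the doses differed by 1.74 ± 0.11 at day 7 (adjusted p = 1.46e-06). Eda2r, a death-domain receptor of the tumour necrosis factor family, rose by 1.89 ± 0.22 (adjusted p = 3.1e-05) after 7 Gy and fell by 1.09 (adjusted p = 0.0231) at 0 Gy, a fall that did not pass without the mTG11 or mTG14 library of day 5 or the mTG12 or mTG14 library of 0 Gy (adjusted p 0.0515 to 0.155). The 2 targets below day 5 included Perp, a desmosomal protein, which fell by 0.36 ± 0.07 (adjusted p = 0.00313), from 1391, 1452 and 1571 CPM to 958, 1152 and 1043 CPM, and differed by 0.02 (95% interval -0.14 to 0.18) between doses at day 7. Trp53 itself was not called against day 5 (-0.17, 95% interval -0.44 to 0.10, adjusted p = 0.355).

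The division programs were below day 5 at both doses, and the mitosis genes lay lower after 7 Gy than at 0 Gy. All 40 mitosis genes were lower at 7 Gy day 7 than at day 5, with a median of -1.59, and in all 40 every 7 Gy library was below every day 5 library, where 26.4% of all genes were. At 0 Gy day 7, 34 were lower with a median of -0.80, and 33 were lower at 7 Gy than at 0 Gy. Every 0 Gy day 7 library was below every day 5 library in 38 of the 40 (25.7% of all genes), and every 7 Gy library was below every 0 Gy library of day 7 in 37 (13.0% of all genes). Mki67, the proliferation marker Ki-67, was at 299, 218 and 232 CPM at day 5, at 130.1, 114 and 117 CPM at 0 Gy day 7 and at 39.1, 45.2 and 47.2 CPM at 7 Gy day 7. It fell by 2.37 on the log2 scale (SE 0.13, adjusted p = 6e-08) from day 5 after 7 Gy. Top2a, the topoisomerase that untangles replicated chromosomes and whose promoter is shown above, fell by 1.83 (SE 0.08, adjusted p = 2.56e-08), from 397, 338 and 382 CPM to 101, 94.4 and 89.3 CPM. Cdc20, an activator of the anaphase-promoting complex, fell by 1.82 (SE 0.10, adjusted p = 1.23e-07). Spc25, a kinetochore subunit and the smallest fall on the list among members with a mean of at least 10 CPM, was at 32.7, 34.6 and 40.5 CPM, then at 15.3, 19.8 and 15.2 CPM, and differed by -0.05 (95% interval -0.43 to 0.32, adjusted p = 0.888) between doses at day 7.

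Genes of DNA replication and the G1/S transition fell as a group as well, with 37 of 40 lower and none higher, a median of -0.99, and 29 lower at 0 Gy with a median of -0.64. Mcm5, part of the replicative helicase, was at 92.1, 91.2 and 93.9 CPM at day 5, at 49.8, 35 and 38.6 CPM at 0 Gy day 7 and at 28.6, 30.6 and 26.3 CPM at 7 Gy day 7, a fall of 1.56 (SE 0.11, adjusted p = 7.15e-07). Rrm2, a subunit of ribonucleotide reductase, was below day 5 at both doses, going from 70.5, 72.2 and 77.5 CPM to 30.0, 29.6 and 27.7 CPM and to 33.5, 36.6 and 21.4 CPM. The difference between doses was 0.04 (95% interval -0.29 to 0.37, adjusted p = 0.904). Between doses at day 7, 11 of the 40 were lower and none higher, against 33 of 40 for mitosis genes. The 11 became 3 with DESeq2, 4 and 7 without the 0 Gy libraries of mTG11 and mTG14, and 5 without the 7 Gy library of mTG11. Gins4, another helicase component, was not called against day 5 (-0.02, 95% interval -0.38 to 0.34, adjusted p = 0.938).

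DNA damage signalling and repair genes were mostly below day 5 despite the irradiation 2 days before, with 24 of 40 lower and 1 higher and a median of -0.63, against 12 lower and 1 higher at 0 Gy. Directly between doses at day 7 only 4 of the 40 were lower and 1 higher, where 6.35% and 5.27% of all genes were. The 4 became 1 with DESeq2. H2ax, the histone variant phosphorylated at breaks, fell by 1.08 (SE 0.13, adjusted p = 3.55e-05) after 7 Gy and by 0.61 (SE 0.12, adjusted p = 0.00261) at 0 Gy, from 53.4, 59.4 and 56.1 CPM at day 5 to 21.9, 27.6 and 23 CPM at 7 Gy day 7. Rad50, part of the complex that binds broken ends, fell by 0.38 (SE 0.10, adjusted p = 0.0096), which did not pass without the day 5 library of mTG11 (adjusted p = 0.0718). The gene called higher was Xrcc4, an end-joining factor named after its values were seen, which rose by 0.98 ± 0.24 (adjusted p = 0.0093) from 5.52, 3.42 and 5.7 CPM to 9.52, 8.99 and 8.25 CPM. With DESeq2, 13 members were called lower instead of 24 and Xrcc4 was not called, nor was it without the day 5 library of mTG12 (adjusted p = 0.0517).

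**Figure D3:**
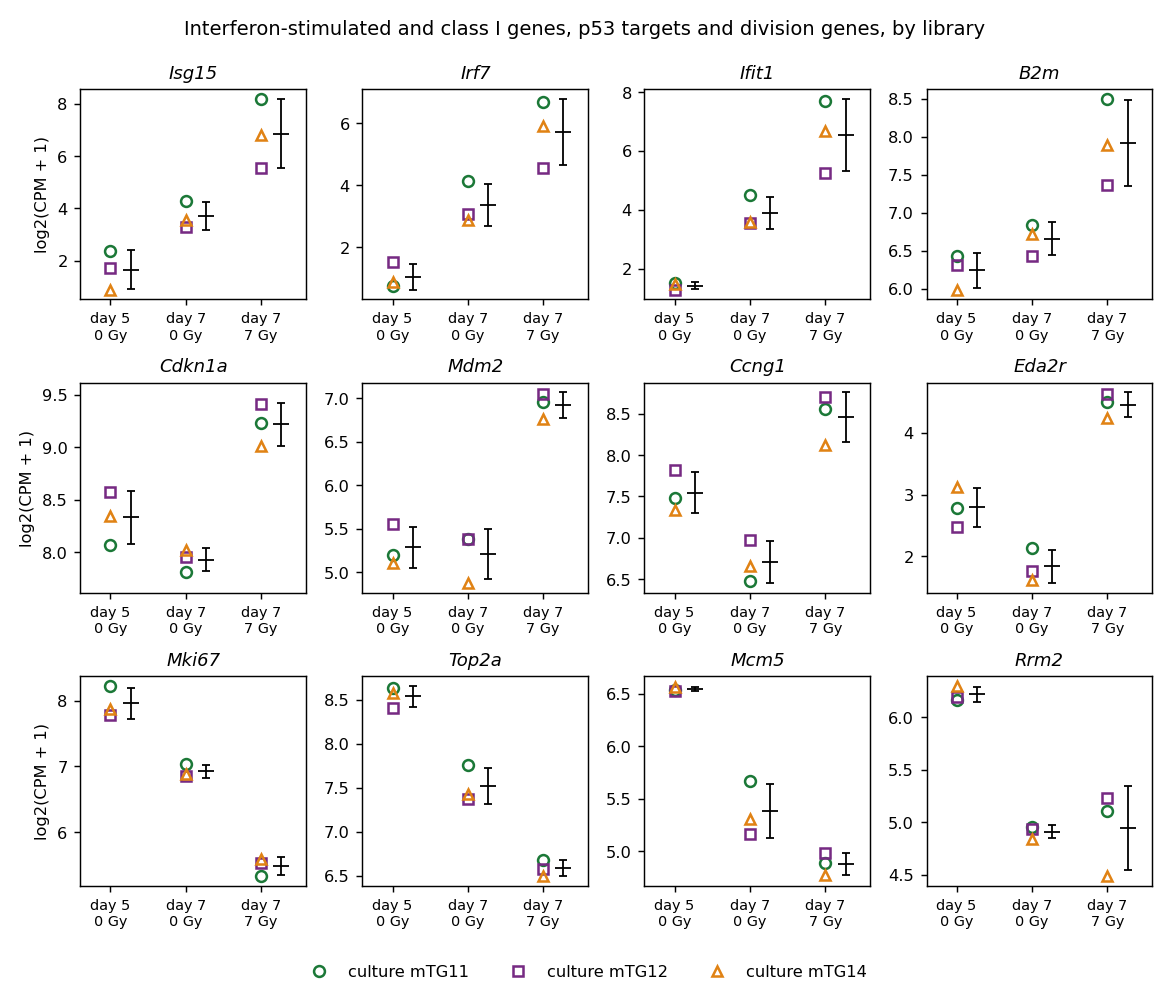
Level of 12 interferon, antigen presentation, p53 and division genes in each library, as log2(CPM + 1), by group, with a marker shape for each culture and a bar for the mean and SD of the 3 libraries. Isg15 and Ifit1 are highest in the 7 Gy library of culture mTG11, the 4 p53 targets are highest in the 7 Gy column, and Mki67 is lower in each later column.

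Simple epithelial genes were mostly above day 5 at both doses. Of 27 simple epithelial keratin and adhesion genes, 21 were higher after 7 Gy than at day 5 and 2 lower, with a median of 0.99, and at 0 Gy the numbers were 22 and 1 with a median of 1.09. Between doses at day 7, 4 were higher and 1 lower, and 1 was higher without the mTG11 library of either dose. Krt20, a keratin of differentiated simple epithelia, was at 4.48, 3.42 and 3.14 CPM at day 5, at 90.7, 114 and 84.1 CPM at 0 Gy day 7 and at 204, 128 and 173 CPM at 7 Gy day 7. It rose by 5.64 ± 0.26 (adjusted p = 2.74e-08) after 7 Gy, and the doses differed by 0.78 ± 0.16 (adjusted p = 0.00639), which did not pass without the mTG11 or mTG14 library of either dose (adjusted p 0.0553 to 0.0700). Krt19 went from 326, 255 and 211 CPM to 1439, 894 and 1129 CPM, a rise of 2.25 ± 0.13 (adjusted p = 1.43e-07), and overlapped with the 0 Gy libraries at 1742, 795 and 1179.9 CPM. Its difference between doses was -0.08 (95% interval -0.35 to 0.19, adjusted p = 0.74). Cdh1, which encodes E-cadherin, rose by 0.51 ± 0.07 (adjusted p = 0.000169), from 314, 321 and 316 CPM to 422, 438 and 378 CPM, and the tight junction gene Ocln rose by 0.99 ± 0.20 (adjusted p = 0.0021). The transcription factor gene Ovol1 fell by 1.43 (SE 0.21, adjusted p = 0.000261) after 7 Gy and by 1.50 (SE 0.22, adjusted p = 0.000266) at 0 Gy.

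Secretory mucosal defence genes also rose, 21 of 29 tested being higher and 2 lower after 7 Gy with a median of 1.37, against 22 and 2 with a median of 1.75 at 0 Gy. At day 7, 8 were lower at 7 Gy than at 0 Gy and 2 higher. The 8 became 1 without the culture block, 4 with DESeq2 or without the mTG11 library of either dose, and 5 without TMM factors, the 0 Gy library of mTG14 or the 7 Gy library of mTG12. The 2 became 8 with a filter of only 1 count and 5 without the day 5 library of mTG12. Ltf, the iron-binding lactotransferrin, was at 91.3, 110.2 and 93.1 CPM at day 5, at 1318, 770.2 and 847 CPM at 0 Gy day 7 and at 1315, 1064 and 1421 CPM at 7 Gy day 7. It rose by 3.82 ± 0.16 (adjusted p = 1.49e-08), and the difference between doses did not pass (0.38, 95% interval 0.09 to 0.68, adjusted p = 0.0944), except without the day 5 library of mTG12 (adjusted p = 0.0366) or the 0 Gy library of mTG11 (adjusted p = 0.0151). Pigr, the receptor that carries immunoglobulin A across epithelia, advanced less, from 13.7, 16.9 and 6.42 CPM to 53.4, 54.5 and 39.9 CPM, against 101, 106 and 51.4 CPM at 0 Gy. Its rise was 2.17 ± 0.17 (adjusted p = 1.44e-06), and the doses differed by -0.79 ± 0.13 (adjusted p = 0.00137). Agr2, a chaperone of mucin folding, was called higher at 0 Gy (0.35 ± 0.10, adjusted p = 0.0254, and 0.0871 to 0.166 without the mTG11 or mTG14 library of day 5 or of 0 Gy) but not after 7 Gy (-0.10, 95% interval -0.33 to 0.13, adjusted p = 0.529). Slpi, a protease inhibitor, fell by 2.31 (SE 0.21, adjusted p = 4.17e-06), from 734, 1069 and 1082 CPM to 119, 228 and 183 CPM, and by 1.62 (SE 0.21, adjusted p = 0.000103) at 0 Gy.

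Thyroid genes gave little to compare, as 12 of 20 were tested, 5 were higher and 2 lower after 7 Gy with a median of 0.32, and 5 were higher and 1 lower at 0 Gy. The 5 higher after 7 Gy became 3 with DESeq2, without the day 5 library of mTG12 or the 7 Gy library of mTG11, and the 5 at 0 Gy became 3 without the day 5 library of mTG14. Without single libraries the median after 7 Gy ran from 0.13, without the day 5 library of mTG14, to 0.53, without that of mTG12. Tg, the thyroglobulin gene, was at 4.48, 16.7 and 4.28 CPM at day 5 and at 0, 3.08 and 0.798 CPM at 7 Gy day 7, and fell by 2.58 (SE 0.47, adjusted p = 0.00109) after 7 Gy and by 2.01 (SE 0.44, adjusted p = 0.00463) at 0 Gy. Duox2, an oxidase that supplies hydrogen peroxide for hormone synthesis and is also used in mucosal defence, rose by 3.03 ± 0.61 (adjusted p = 0.00248), from 0.689, 0 and 0.855 CPM to 3.76, 3.6 and 5.59 CPM, and by 2.08 ± 0.70 (adjusted p = 0.0438) at 0 Gy. The call for Duox2 at 0 Gy was lost under 12 of 20 alternatives, among them DESeq2, no TMM factors and thinning (adjusted p up to 0.172). The factor gene Nkx2-1 differed by 0.07 (95% interval -0.31 to 0.44, adjusted p = 0.827). Of 29 multiciliated genes 12 were tested, and 2 were higher and 2 lower after 7 Gy, near the 15.4% and 12.6% of all genes. Foxj1, the master factor of motile cilia, had no count at day 5 and was at 0.501, 5.4 and 0.532 CPM at 7 Gy day 7, at least 6.47-fold higher, mostly from culture mTG12. Its 0 Gy day 7 libraries were at 2.08, 2.65 and 0.257 CPM, called as well (adjusted p = 0.0138). The call for Foxj1 after 7 Gy was lost without the mTG12 library of day 5 (adjusted p = 0.0872) or of 7 Gy (adjusted p = 0.101).

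The cornified program of stratified epithelium split in a way that its summed level hides. Of 38 tested genes of 40 listed, 11 were higher and 20 lower after 7 Gy than at day 5, with a median of -0.63, against 14 higher and 11 lower at 0 Gy with a median of 0.01. At day 7, 4 were higher and 11 lower at 7 Gy than at 0 Gy. The 11 became 20 without the 0 Gy library of mTG12 and 17 with a filter of only 1 count, which also gave 7 higher. The median against day 5 after 7 Gy became -1.03 without the 7 Gy library of mTG12. Ivl, which encodes the envelope precursor involucrin, rose by 2.29 ± 0.13 (adjusted p = 1.1e-07), from 19.3, 23.6 and 17.7 CPM to 60.4, 49.6 and 42.7 CPM at 0 Gy and 107, 81.2 and 81.7 CPM at 7 Gy. The 3 groups did not overlap. Sprr2a1, a small proline-rich envelope protein that shares reads with Sprr2a2, rose by 1.77 ± 0.08 (adjusted p = 2.74e-08), from 4809, 5193 and 4619.9 CPM to 14333, 14989.8 and 16349 CPM. Krt4, a mucosal suprabasal keratin, rose by 1.54 ± 0.29 (adjusted p = 0.00154), and differed by 0.00 (95% interval -0.64 to 0.64) between doses, or by -0.53 (adjusted p = 0.0142) without the 0 Gy library of mTG12.

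Lor and Krtdap, genes of later differentiation, moved the other way. Lor, which encodes loricrin, was at 109, 84.8 and 156 CPM at day 5, at 122, 40.8 and 92.1 CPM at 0 Gy day 7 and at 7.77, 17.2 and 20.0 CPM at 7 Gy day 7. It fell by 2.80 (SE 0.29, adjusted p = 1.32e-05) after 7 Gy, the difference at 0 Gy was -0.34 (95% interval -0.85 to 0.17, adjusted p = 0.338), and the doses differed by -2.47 ± 0.30 (adjusted p = 0.000156). Without the 0 Gy library of mTG11 the 0 Gy difference was -0.79 (adjusted p = 0.0210). Krtdap, a secreted protein of differentiating keratinocytes, fell by 3.39 (SE 0.16, adjusted p = 2.74e-08), from 1488, 1205 and 1789 CPM to 94, 141 and 151 CPM. It had also fallen at 0 Gy, to 379, 244 and 408 CPM, by 1.98 (SE 0.15, adjusted p = 1.38e-06). The doses differed by -1.41 ± 0.15 (adjusted p = 7.02e-05). Flg and Crnn, named after their values were seen, are also late genes of this kind. Flg, which encodes filaggrin, rose at 0 Gy by 1.03 ± 0.32 (adjusted p = 0.0299, and 0.184 to 0.286 without the mTG11 or mTG14 library of day 5 or of 0 Gy) and fell by 3.25 (SE 0.55, adjusted p = 0.000721) after 7 Gy, from 12.4, 7.79 and 5.42 CPM to 0.501, 1.03 and 0.798 CPM. Crnn, which encodes cornulin, rose at 0 Gy by 2.28 ± 0.22 (adjusted p = 1.13e-05) and was not called against day 5 after 7 Gy (-0.29, 95% interval -0.89 to 0.31, adjusted p = 0.48).

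Among 22 basal keratin and hemidesmosome genes, 11 were higher and 7 lower after 7 Gy than at day 5, with a median of 0.23, against 5 and 7 at 0 Gy. Without TMM factors 7 were higher and 8 lower, and without the day 5 library of mTG12 7 were higher. The 5 at 0 Gy became 2 without that library and 3 with DESeq2, its size factors or no TMM factors, without the day 5 library of mTG11 or without the 0 Gy library of mTG11 or mTG14. Krt15, a keratin of basal and progenitor cells, rose by 1.29 ± 0.16 (adjusted p = 4.63e-05), from 492, 678 and 421 CPM to 1092, 1284 and 1131 CPM, and by 0.96 ± 0.16 (adjusted p = 0.000619) at 0 Gy. Krt16, a keratin of activated keratinocytes, fell by 1.05 (SE 0.09, adjusted p = 2.18e-06) after 7 Gy and by 1.66 (SE 0.09, adjusted p = 1.16e-07) at 0 Gy, from 2217, 2963 and 3164 CPM to 993, 1364 and 1317 CPM and to 764, 877 and 719.7 CPM. Its level after 7 Gy thus lay between day 5 and 0 Gy day 7. Trp63, the p53 family factor that maintains basal cells, was at 125, 123 and 159 CPM at day 5, at 130.0, 138 and 123 CPM at 0 Gy day 7 and at 80.7, 82.7 and 87.9 CPM at 7 Gy day 7. It fell by 0.56 (SE 0.10, adjusted p = 0.00108) after 7 Gy, and the difference at 0 Gy was 0.09 (95% interval -0.12 to 0.31, adjusted p = 0.54). Krt5 was not called (-0.12, 95% interval -0.25 to 0.01, adjusted p = 0.173).

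The hypoxia program advanced at 0 Gy and only in part after 7 Gy. Of 29 glycolysis and hypoxia genes, 20 were higher and none lower at 0 Gy day 7 than at day 5, with a median of 0.79, while after 7 Gy 10 were higher and 5 lower with a median of 0.03. Between doses at day 7, 25 were lower at 7 Gy and none higher. The median after 7 Gy turned to -0.11 without TMM factors, with 8 higher and 9 lower. Bnip3, a hypoxia-induced mitophagy receptor, was at 9.19, 15.7 and 12.3 CPM at day 5, at 93, 124 and 113 CPM at 0 Gy day 7 and at 36.3, 31.2 and 45.3 CPM at 7 Gy day 7. It rose by 1.76 ± 0.19 (adjusted p = 1.96e-05) after 7 Gy and by 3.32 ± 0.17 at 0 Gy (adjusted p = 9.72e-08), and the 3 groups did not overlap. The lactate exporter gene Slc16a3 took the same intermediate position, at 5.52, 16 and 13.7 CPM, 67.2, 104 and 88.3 CPM, and 36.8, 54 and 34.3 CPM, with a rise of 1.97 ± 0.19 after 7 Gy (adjusted p = 6.24e-06).

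The glycolytic enzymes Pgk1 and Ldha, by contrast, were not called above day 5 or were below it. Pgk1, phosphoglycerate kinase, was at 172, 205 and 187 CPM at day 5, at 301, 359.9 and 343 CPM at 0 Gy day 7 and at 189, 224 and 185 CPM at 7 Gy day 7. It rose at 0 Gy by 0.98 ± 0.08 (adjusted p = 3.23e-06) and was not called after 7 Gy (0.22, 95% interval 0.04 to 0.40, adjusted p = 0.0645, and 0.0483 without the 0 Gy library of mTG11). Ldha, lactate dehydrogenase A, rose by 0.25 ± 0.07 (adjusted p = 0.0191, and 0.0781 to 0.108 without the mTG11 library of day 5 or the mTG14 library of day 5 or of 0 Gy) at 0 Gy and fell by 0.32 (SE 0.07, adjusted p = 0.00502) after 7 Gy. Slc2a1, the glucose transporter GLUT1, was at 189.9, 235 and 216 CPM at day 5, at 183, 215 and 217 CPM at 0 Gy day 7 and at 101, 116 and 98.2 CPM at 7 Gy day 7. It fell by 0.88 (SE 0.09, adjusted p = 8.71e-06), with no overlap with either unirradiated group.

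Immediate early genes diverged among themselves. Of 29, 10 were higher and 3 lower after 7 Gy with a median of 0.05, which became -0.08 without TMM factors, and 13 were higher and 3 lower at 0 Gy. Over all genes 15.4% were higher and 12.6% lower after 7 Gy, and 13.9% and 11.1% at 0 Gy. The counts of lower genes are thus near the shares over all genes. Without the day 5 library of mTG14, 6 were higher after 7 Gy, and without the 0 Gy library of mTG12 or TMM factors 5 were lower. Fos, a subunit of AP-1, was at 77.6, 58.9 and 63.3 CPM at day 5, at 183, 216 and 211 CPM at 0 Gy day 7 and at 40.4, 29.5 and 38.6 CPM at 7 Gy day 7. It rose by 1.77 ± 0.14 (adjusted p = 2.25e-06) at 0 Gy and fell by 0.75 (SE 0.16, adjusted p = 0.00316) after 7 Gy. Jun, its partner in AP-1, rose at both doses, by 1.32 ± 0.10 (adjusted p = 1.32e-06) after 7 Gy and 1.47 ± 0.10 (adjusted p = 9.99e-07) at 0 Gy, and the doses differed by -0.15 (95% interval -0.35 to 0.06, adjusted p = 0.363). Egr1, a growth factor-induced zinc finger factor, fell by 1.22 (SE 0.12, adjusted p = 5.78e-06) after 7 Gy, from 357, 192 and 297 CPM to 115, 82 and 129.6 CPM.

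Cholesterol and fatty acid synthesis genes were largely below day 5 after 7 Gy. Of 34 genes, 23 were lower and none higher after 7 Gy, with a median of -0.58, while at 0 Gy 6 were higher and 8 lower with a median of 0.04. The 8 at 0 Gy became 1, 4 and 3 without the day 5 libraries of mTG11, mTG12 and mTG14, 5 and 1 without the 0 Gy libraries of mTG11 and mTG12, and 5 with DESeq2. Between doses at day 7, 27 were lower at 7 Gy and none higher. Hmgcs1, which makes the precursor of mevalonate, was at 328, 337 and 342 CPM at day 5, at 304, 270.1 and 294 CPM at 0 Gy day 7 and at 163, 201 and 174 CPM at 7 Gy day 7. It fell by 0.77 (SE 0.09, adjusted p = 2.4e-05) after 7 Gy. Scd2, a desaturase, rose by 0.56 ± 0.08 (adjusted p = 0.000374) at 0 Gy and fell by 0.41 (SE 0.08, adjusted p = 0.00295) after 7 Gy, from 796, 864 and 808 CPM to 1192, 987 and 1096 CPM and to 559.9, 629.9 and 511 CPM. Elovl6, a fatty acid elongase, fell by 1.39 (SE 0.09, adjusted p = 3.47e-07), the largest fall of its list among members with a mean of at least 10 CPM, and by 0.64 (SE 0.09, adjusted p = 0.000166) at 0 Gy. Srebf1, a master factor of the pathway, differed by 0.19 (95% interval -0.05 to 0.43, adjusted p = 0.238).

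**Figure D4:**
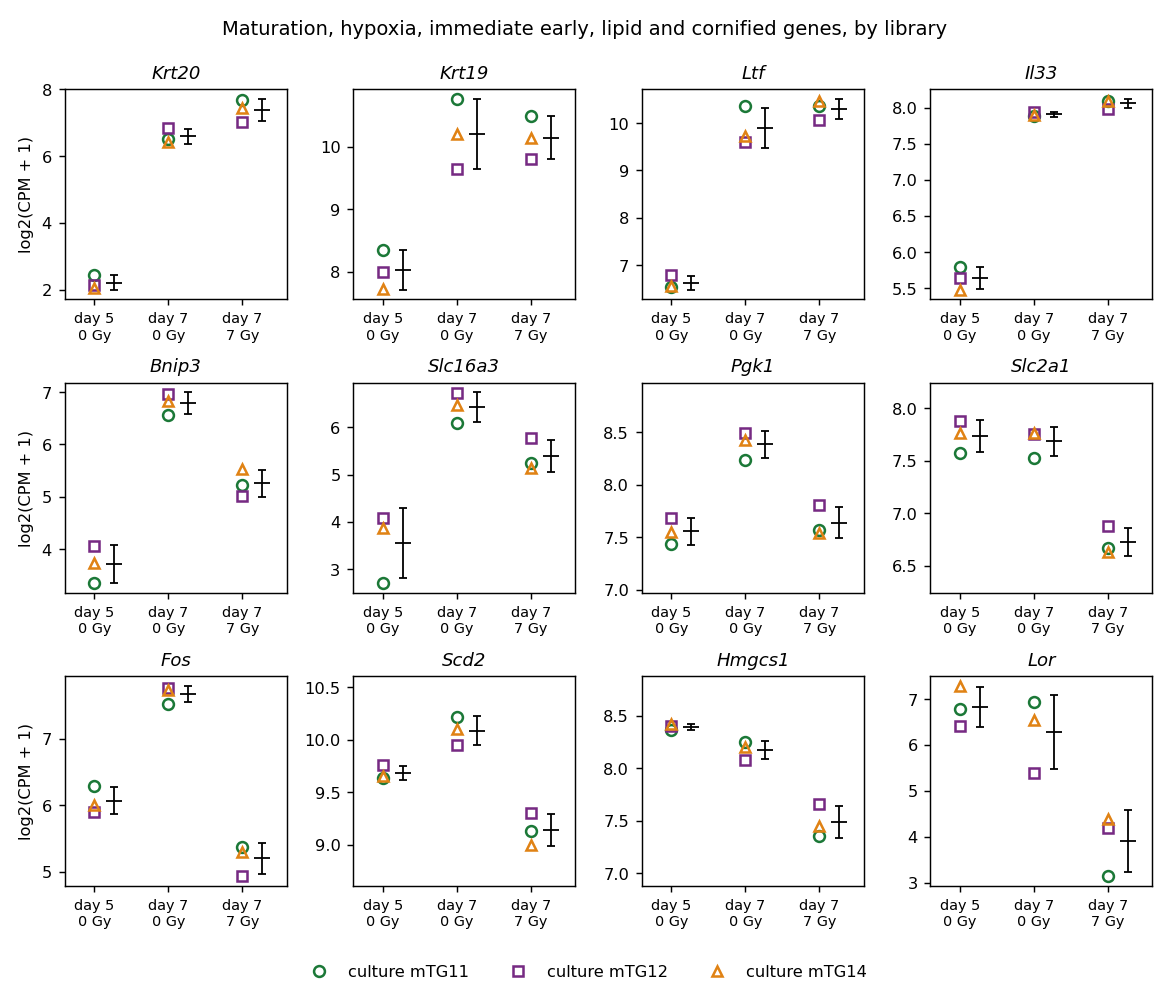
Level of 12 maturation, cytokine, hypoxia, immediate early, lipid and cornified genes in each library, as log2(CPM + 1), with the same markers and bars as in the plot of interferon, p53 and division genes. Krt20, Krt19, Ltf and Il33 sit near the 0 Gy day 7 level after 7 Gy or above it, Bnip3 and Slc16a3 lie between the unirradiated groups, and Slc2a1, Fos, Scd2, Hmgcs1 and Lor lie below day 5.

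In the amino acid and antioxidant programs more genes were called below day 5 than above it at both doses. Of 29 tested ATF4 and amino acid genes, 7 were higher and 17 lower after 7 Gy with a median of -0.34, and 4 were higher and 11 lower at 0 Gy. Psat1, an enzyme of serine synthesis, fell by 1.83 (SE 0.13, adjusted p = 5.29e-07), from 266, 222 and 242 CPM to 63.4, 73.5 and 50.6 CPM, and by 0.82 (SE 0.12, adjusted p = 0.000291) at 0 Gy. Nupr1, a stress-induced chromatin protein, rose by 2.32 ± 0.16 (adjusted p = 5.29e-07) after 7 Gy and 2.20 ± 0.16 at 0 Gy (adjusted p = 1.32e-06). Without the day 5 library of mTG11, 4 of the list were called higher. Of 35 glutathione and NRF2 genes, 7 were higher and 17 lower after 7 Gy with a median of -0.32, and 5 and 18 at 0 Gy. The 5 became 3 with DESeq2, no TMM factors or thinning, without any single library of day 5 and without the 0 Gy library of mTG11. Gstm1, a glutathione transferase, fell by 2.96 (SE 0.10, adjusted p = 4.43e-09), from 607, 396 and 476 CPM to 62.7, 46.8 and 63.1 CPM, and the doses differed by -1.66 ± 0.10 (adjusted p = 1.01e-06). Nqo1, a quinone reductase, fell by 1.17 (SE 0.08, adjusted p = 6.05e-07) after 7 Gy and by 0.88 (SE 0.08, adjusted p = 9.03e-06) at 0 Gy.

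Mitochondrial transcripts and the nuclear genes of the same complexes moved in opposite directions. Of 13 mitochondrially encoded genes, 9 were higher after 7 Gy and none lower, with a median of 0.71, against 10 higher and 1 lower at 0 Gy with a median of 0.38. COX1, a cytochrome oxidase subunit, rose by 1.08 ± 0.08 (adjusted p = 1.08e-06), from 1348, 1296 and 1465 CPM to 2474, 2392 and 3101 CPM, and the 0 Gy libraries overlapped at 2371, 2455 and 2471 CPM. CYTB rose by 0.91 ± 0.08 (adjusted p = 3.79e-06) and differed by 0.54 ± 0.08 (adjusted p = 0.000817) between doses. Of 53 nuclear respiratory chain genes, 32 were lower and 1 higher, with a median of -0.29, and 28 and 1 at 0 Gy. Atp5b, a subunit of ATP synthase, fell by 0.47 (SE 0.07, adjusted p = 0.000355), from 894, 909.8 and 887 CPM to 615, 637 and 531 CPM, and by 0.40 (SE 0.07, adjusted p = 0.0014) at 0 Gy. Without the day 5 library of mTG11 or mTG14 or the 7 Gy library of mTG14, between 19 and 20 nuclear genes were called lower after 7 Gy. At 0 Gy the 28 became 15 without the day 5 library of mTG11 and 11 without that of mTG14. Without TMM factors 5 mitochondrially encoded genes were higher instead of 10.

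Ribosomal protein genes were lower by small steps. Of 77, 36 were lower after 7 Gy and none higher, with a median of -0.21, against 4 lower and 3 higher at 0 Gy, and 20 were lower at 7 Gy than at 0 Gy at day 7. The count after 7 Gy depended on the scaling and on single libraries, at 70 lower without TMM factors, 16 without the day 5 library of mTG11, 23 without that of mTG14, and 23, 23 and 20 without the 7 Gy libraries of mTG11, mTG12 and mTG14. At 0 Gy it was 24 without TMM factors and 1 or 2 without any single library of day 5 or the mTG11 or mTG12 library of either dose. The 20 between doses became 36, 6 and 4 without the 0 Gy libraries of mTG11, mTG12 and mTG14. They became 7, 5 and 5 without the 7 Gy libraries in that order, and 12 without the day 5 library of mTG14. They became 8 in a fit of the compared groups alone and 33 with a filter of only 1 count. Rps6, a protein of the small subunit, was at 428, 435 and 451 CPM at day 5 and at 316, 334 and 303 CPM at 7 Gy day 7, and fell by 0.33 (SE 0.08, adjusted p = 0.00502). At 0 Gy its difference was 0.03 (95% interval -0.13 to 0.19, adjusted p = 0.815).

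More senescence-associated genes were called above day 5 than below it at both doses, with 15 of 28 higher and 4 lower after 7 Gy and a median of 0.67 (0.56 with genes at 0 set to their bound), against 10 and 4 at 0 Gy. Over all genes 15.4% were higher and 12.6% lower after 7 Gy, and 13.9% and 11.1% at 0 Gy. The counts of lower genes are thus near the shares over all genes. The 10 at 0 Gy became 6 without TMM factors, and the 4 at 0 Gy became 1 without the culture block or the day 5 library of mTG14 and 2 without that of mTG12. Between doses at day 7, 10 were higher and 5 lower at 7 Gy, where 5.27% and 6.35% of all genes were. These 10 became 4 without the 0 Gy library of mTG11, and the 5 became 2 without the culture block. Cdkn2a, the cell cycle inhibitor locus of p16 and p19, rose by 1.67 ± 0.18 (adjusted p = 1.75e-05), from 12.4, 23.6 and 12 CPM to 43.1, 58.1 and 35.7 CPM, and its difference between doses was 0.20 (95% interval -0.13 to 0.53, adjusted p = 0.46). Igfbp3, a binding protein of insulin-like growth factors, rose by 2.11 ± 0.15 (adjusted p = 5.27e-07) after 7 Gy and 2.16 ± 0.15 at 0 Gy (adjusted p = 7.29e-07). Lmnb1, which encodes lamin B1, fell by 0.86 (SE 0.11, adjusted p = 8.46e-05).

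Of 35 TGF-beta target and mesenchymal genes, 11 were higher and 3 lower after 7 Gy with a median of 0.32. At 0 Gy 11 were higher and 3 lower with a median of 0.16, and 8 were higher and 2 lower at 7 Gy than at 0 Gy. Over all genes 15.4%, 13.9% and 5.27% were higher in these contrasts, in that order, and 12.6%, 11.1% and 6.35% lower. The counts of lower genes are thus near those shares or below them. With DESeq2 6 were higher at 0 Gy and 4 between doses. Between doses 5 were higher without the culture block or the 7 Gy library of mTG11 and 4 without the 0 Gy library of mTG11. The 0 Gy median became 0.05 and 0.28 without the 0 Gy libraries of mTG11 and mTG14. Mcam, an adhesion molecule of the immunoglobulin family, was at 10.7, 15.2 and 11.7 CPM at day 5, at 4.69, 5.83 and 8.49 CPM at 0 Gy day 7 and at 56, 68.3 and 49.2 CPM at 7 Gy day 7. It rose by 2.34 ± 0.17 (adjusted p = 7.15e-07) after 7 Gy and fell by 0.81 (SE 0.24, adjusted p = 0.0252, and 0.0601 to 0.116 without any single library of day 5 or the mTG11 or mTG12 library of 0 Gy) at 0 Gy, and the doses differed by 3.16 ± 0.18 (adjusted p = 8.02e-07). The contractile gene Tpm1 rose by 1.34 ± 0.10 (adjusted p = 1.24e-06). Id1, a direct target of BMP signalling, fell by 1.08 (SE 0.13, adjusted p = 3.95e-05), from 108, 138 and 135 CPM to 38.9, 68.1 and 59.9 CPM. The mesenchymal markers Vim (-0.48, 95% interval -0.99 to 0.03, adjusted p = 0.153), Fn1 (0.05, -0.32 to 0.42, adjusted p = 0.872) and Snai2 (-0.09, -0.40 to 0.23, adjusted p = 0.702) were not called against day 5. Without the 7 Gy library of mTG11, Vim was called lower (-0.73, adjusted p = 0.0250).

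Markers of other cell types are given beside these programs, and their part in the results was not tested. Over all genes tested, 15.4% were higher and 12.6% lower after 7 Gy, and these shares apply to each list below. Of 30 fibroblast and matrix genes 27 were tested, 2 were higher and 4 lower after 7 Gy, which is near those shares or below them. Their sum was 554 to 800 CPM at day 5, 522 to 778 CPM at 0 Gy day 7 and 669 to 815 CPM at 7 Gy day 7. Skeletal muscle genes were lower, 6 of 10 after 7 Gy and none higher, and summed to 183 to 544 CPM at day 5, 50.2 to 134.8 CPM at 0 Gy day 7 and 79.9 to 197 CPM at 7 Gy day 7, with 3 called lower without the culture block. Of 14 leukocyte genes 9 were tested and 4 were higher, and the sums were 46.2 to 69.4 CPM, 88.0 to 151.5 CPM and 95.1 to 139.4 CPM. Of the 9 tested, 8 had a difference above 0 after 7 Gy, with a median of 1.17. Ptprc, the pan-leukocyte marker CD45, had 0, 1 and 1 counts over the 3 libraries of each group and the T cell marker Cd3e had none. Neither gene had enough counts to test, so the sums came from other members. Whether leukocytes were present was not tested. The 4 leukocyte genes became 2 with DESeq2, without the day 5 library of mTG11 or the 7 Gy library of mTG14, and the 4 lower fibroblast genes became 2 with DESeq2 or without the mTG12 library of day 5 or of 7 Gy. Of 14 endothelial genes 4 were tested and none was called. They summed to 9.72 to 12.3 CPM, 8.86 to 12.1 CPM and 11.2 to 17.7 CPM, and Cdh5, which encodes VE-cadherin, had 1, 0 and 0 counts. Of 10 C cell and parathyroid genes 5 were tested, 1 was higher and 1 lower. The sums of 5.86 to 18.6 CPM, 19.8 to 40.8 CPM and 77.2 to 92.2 CPM came mostly from Calcb, a calcitonin gene-related peptide named after its values were seen, which rose by 3.68 ± 0.21 (adjusted p = 1.1e-07). Of 10 adipocyte genes 3 were tested and Fabp4 was lower. The sums were 31.0 to 45.9 CPM, 12.8 to 19.6 CPM and 7.04 to 15.2 CPM, and Adipoq had no counts. Of 10 glial and neuronal genes 7 were tested and Tubb3 was lower. The sums were 120.0 to 151.6 CPM, 89.7 to 123.5 CPM and 37.7 to 65.1 CPM, and Sox10 had no counts.

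The largest changes were ranked among called genes with a mean of at least 10 CPM whose groups did not overlap. The 10 largest rises were Ifit3b, Ifit3, Ifi44, Rsad2, Apol9b, Rtp4, Ifit1, Isg15, Oasl2 and Irf7, of which all but Apol9b, itself a gene that responds to interferon, are on the interferon-stimulated list. These genes reached the mean of 10 CPM through their 7 Gy libraries. The list was chosen with earlier results of these data known, so this overlap is only a description. Among the 10 largest falls, Lce1a2 and Lce1d, late cornified envelope genes with near-identical copies, went from between 17.2 and 28.7 CPM at day 5 to no more than 1.06 CPM at 7 Gy day 7. Serpinb12, an epithelial protease inhibitor, fell by 3.81 (SE 0.31, adjusted p = 1.52e-06). Tubb3, a beta tubulin best known from neurons, fell at both doses, from 74.6, 74.7 and 70.7 CPM to 3.63, 7.84 and 3.99 CPM after 7 Gy and to 3.26, 2.39 and 3.09 CPM at 0 Gy. Kif14, a mitotic kinesin, fell by 3.01 (SE 0.30, adjusted p = 8.58e-06). The others were Gm94, Mt4, Defb4, Krtdap and Cpa4, of which the defensin gene Defb4 differed by -2.37 ± 0.36 (adjusted p = 0.000857) between doses.

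**Figure D5:**
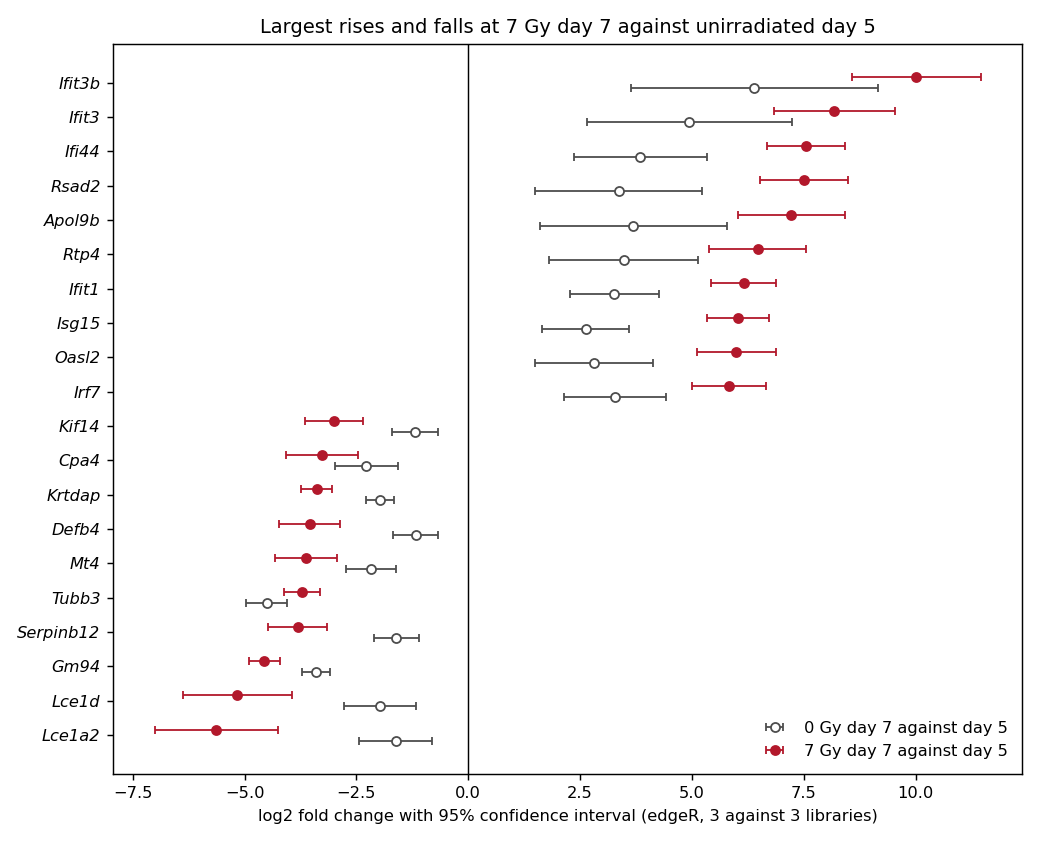
Log2 fold changes with 95% intervals of the 10 largest rises and 10 largest falls from day 5 to day 7, after 7 Gy (filled) and at 0 Gy (open). For each rise shown, the 7 Gy value exceeds the 0 Gy value, as with Isg15 at 6.04 and 2.62, and among the falls Tubb3 lies lower at 0 Gy, at -4.51, than after 7 Gy, at -3.72. The genes were picked by the size of their change after 7 Gy, which favours a larger change there than at 0 Gy.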

How the data were processed

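The authors made Smart3SEQ libraries from mTGOs, and deposited estimated counts per gene symbol (unit: expected counts, not normalized) for 50559 genes. The submitters' processing notes name build GRCm39 and the tools STAR and edgeR without a role or version, and the counting tool, annotation and handling of molecular identifiers are not given in the sources used here. Of the nonzero values 56.3% were whole, so genes with shared reads are uncertain. Promoters were placed with the GENCODE annotation of GRCm39, in which 79.2% of the symbols were found. No column of per-sample values was left unmapped. Columns were placed by day and dose, and the culture name in the column gave the replicate block.

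Counts were rounded, although the planned test had assumed whole counts, and genes whose counts over the 9 libraries of day 5, 0 Gy day 7 and 7 Gy day 7 came to 10 or more were tested with edgeR 4.0.16 in R 4.3.3 (TMM, quasi-likelihood, culture block, Benjamini-Hochberg adjusted p under 0.05), since the study's methods name no count test. Of the genes in the file, 20569 had no counts in these libraries. CPM values use library totals without TMM factors, so they can differ slightly from the fold changes. Same-culture libraries of day 5 and 7 Gy day 7 deviated together (correlation 0.223 to 0.236 over 12899 genes, mean 0.229, against -0.114 between cultures), which is the check of the pairing. Each gene was centred within its group, so the mean between cultures largely follows from the same-culture mean and is not a separate comparison. By the methods the libraries of a group came from 3 different animals. The smallest chi-square per degree of freedom between replicates was 3.39 over 9 pairs, so no library was counted as deposited again. A fold against a group at 0 is a lower bound from a floor of 3 counts over the group, and with 1 to 3 counts it is given with an exact counting interval. The procedure was tested on simulated data for 7 Gy day 7 against day 5 (17948 genes, 100 changed by 1 and 100 by 2 on the log2 scale). It recovered 95% and 100% of them, and 10.6% of its 218 calls were false, above the nominal 5%, so single calls near the threshold are less certain than their adjusted p.

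Alternatives were no culture block, only the compared groups, 15 libraries, DESeq2 1.42.0, other scalings and filters, thinning to the smallest total, leaving out ribosomal and mitochondrial genes, unrounded counts, and leaving out each library. The 30 lists and their members were chosen with earlier results of these data known. Some lists share genes, such as Tap1, Sesn2 and Slc7a11. Genes were named by rule: the 10 largest rises and falls from day 5 to 7 Gy day 7 among called genes that averaged 10 CPM or more and whose groups did not overlap, core genes of each list, and per list the members with the largest and smallest change and the 2 most expressed, again averaging 10 CPM or more. Figures were drawn with matplotlib 3.10.9 in Python 3.11.15. Some genes named by the rule are not reported here.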

Additional observations from a re-analysis of the deposited data

Results flagged for a closer look

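The change from day 5 to day 7 differed between 7 Gy and 0 Gy in 2135 genes, by the test of the difference itself (edgeR's quasi-likelihood test of 7 Gy against 0 Gy at day 7, adjusted p under 0.05). The lower doses at day 7 were not part of the comparison, and in a fit of the 15 libraries of days 5 and 7 they differed from 0 Gy in 148 genes at 2 Gy and in 1053 genes at 4 Gy.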

How the results depend on the processing

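The count of genes that differed between 7 Gy day 7 and day 5 (5150) stayed within 1.5 times under 19 of 20 alternatives, and so did the count for 0 Gy day 7 against day 5 (4603). DESeq2 gave fewer calls, 2990 and 2748, and 1082 for 7 Gy against 0 Gy at day 7 (2135). Leaving out each library gave 3517 to 5263, 3104 to 4597 and 1187 to 2071 calls. The lowest counts against day 5 came without the day 5 library of mTG14. For 7 Gy against 0 Gy the count was 1187 without the 7 Gy library of mTG11, 1327 without that of mTG12, and 1334 and 1363 without the 0 Gy libraries of mTG11 and mTG14. Without the replicate block, which drops the pairing by culture, there were 4616, 4047 and 1526 calls. Fits that leave out a library have fewer samples, and the cause of the other changes was not tested. For named genes against day 5 after 7 Gy, 60 calls were lost and 42 gained over all alternatives and none reversed. Krt6a was lost under 11 alternatives, Duox1 and Pth under 8, Rplp0 and Chac1 under 5, Brca1 under 4, Fasn and Foxj1 under 3. Between doses at day 7, 151 were lost and 52 gained, and the uncalled difference of Krt4 (0.00) ran from -0.53 (adjusted p = 0.0142), without the 0 Gy library of mTG12, to 0.42 when single libraries were left out. At this depth, genes that stay near 3 counts in all libraries can hardly show a difference.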

Other observations

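At the doses between 0 and 7 Gy the day 7 libraries give the same lists at intermediate irradiation. The values come from 1 fit of the 15 libraries of days 5 and 7, all doses share the day 5 libraries, and no trend over dose was tested. The median log2 difference of interferon-stimulated genes from day 5 was 2.33 at 0 Gy, 3.22 at 2 Gy, 3.99 at 4 Gy and 4.90 at 7 Gy. For p53 targets the medians were -0.13, 0.42, 0.69 and 0.89 in the same order of dose. For glycolysis and hypoxia genes they were 0.79, 0.47, 0.34 and 0.03, and for cholesterol and fatty acid genes 0.05, -0.16, -0.25 and -0.57. Mitosis genes were at -0.79, -0.80, -0.996 and -1.58, so 0 Gy and 2 Gy lay close together there. Simple epithelial genes were at 1.09, 0.81, 0.94 and 1.00.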
